A study of Mus musculus with 18 samples.

Results

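Short-term haematopoietic stem cells (ST-HSC) were compared after culture with doxycycline (D) and after culture without it (N), at day 2 and at day 4. These 4 libraries, 2D, 4D, 2N and 4N, are 4 of the 18 in the series, and they were taken by their titles. All came from C57BL/6 mice grown wholly from induced pluripotent stem cells, whose genome carries copies of the factors Oct4, Sox2, Klf4 and c-Myc that doxycycline can switch on; the genes of Oct4 and c-Myc are Pou5f1 and Myc. The N cells therefore carry the same inserted factors as the D cells, and the design text gives the N cultures as the control for changes that culture alone brings. Each library was made from 25 hand-picked cells by poly(T)-primed reverse transcription and PCR, and the number of mice behind each is not stated in the labels. The doxycycline field of the labels reads yes for the N libraries too, so the groups rest on the titles and the design text. Each condition is 1 library, so each D and N value below is a single measurement without a replicate, and the 2 days stand side by side in place of replicates. The long-term stem cell (LT-HSC) and myeloid progenitor (MP) libraries of the same design, D and N at both days, and the uncultured ST-HSC library are used only to set these values in context.

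ST-HSC are blood-forming progenitors that can rebuild all blood lineages for a limited time. They keep stem cell surface proteins such as Sca-1 (gene Ly6a) and Kit, and when they mature along the granulocyte path they switch on myeloperoxidase, proteinase 3 and other proteins of the primary granule. Forced Oct4, Sox2, Klf4 and c-Myc can turn body cells into induced pluripotent stem cells, and genes of the starting cell are known to be turned down early on this route. Sox2 is also a regulator of neural stem cells, and Sox21 is a related factor of the developing nervous system.

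Values are FPKM, a level scaled by transcript length and by the mapped fragments of the library. Differences are D minus N on the log2(FPKM + 1) scale, taken within a day, and they understate the change of weakly expressed genes. The number of reads behind each value is unknown. A gene at 0 is described as listed at 0, since 0 can also be a failed estimate, and no size is given for a difference where both libraries of the lower group are listed at 0. Where 1 of them is, the printed log2 difference rests in part on the 1 added before the log. Between 10702 and 11365 genes reached 1 FPKM in each of the 12 cultured blood libraries, and 12254 genes with a mean of at least 1 FPKM over those libraries were tested. The median difference over all tested genes was 0 at day 2 and 0 at day 4.

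Of the inserted factors, Sox2 had a higher level in both D libraries than in both N libraries, and the others did not. Sox2 was at 29.1 FPKM in 2D and 39.1 in 4D, against 1.12 in 2N and listed at 0 in 4N, a limma difference of 4.58 ± 0.79 (SE) with a Benjamini-Hochberg adjusted p of 0.0563, which missed the threshold of 0.05. Pou5f1 was at 2.07 FPKM in 2D and listed at 0 in 4D and in both N libraries, and it was too low to be tested. Klf4 was at 0.704 FPKM in 2D and 3.20 in 4D, against 1.33 in 2N and 0.329 in 4N, so its order turned between the days. Uncultured ST-HSC had 240 FPKM of Klf4, above every cultured ST-HSC library. Myc, a driver of growth and ribosome production, was at 47.6 FPKM in 2D and 149 in 4D, against 284 in 2N and 205 in 4N, and its difference did not pass (limma adjusted p = 0.462). Reads from the inserted copies and from the mouse's own genes cannot be told apart in these values, and Sox2 is the factor whose levels separate the D from the N titles at both days.

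Between D and N, 294 genes (2.4% of those tested) were at least 4-fold higher in D at both days on the log2(FPKM + 1) scale, and 152 genes (1.24%) were at least 4-fold lower at both days. Single days gave more. At day 2, 1009 genes (8.23%) were 4-fold higher and 731 (5.97%) 4-fold lower in D, and at day 4, 798 (6.51%) were higher and 556 (4.54%) lower. The genes higher at both days were 29.1% of those higher at day 2 and 36.8% of those higher at day 4. For lower genes the shares were 20.8% of day 2 and 27.3% of day 4. The genes 4-fold higher at day 2 and 4-fold lower at day 4 numbered 36 (0.294%), and 42 (0.343%) had the reverse order. Across genes the differences of both days had a Pearson correlation of 0.336, a description only, since the genes share the same 4 libraries. Of the 294 higher genes 114 were listed at 0 in both N libraries, and of the 152 lower genes 52 were listed at 0 in both D libraries, so their distance depends on the 1 added before the log. Cd59a lay just inside the 4-fold line, with a smaller daily difference of 2.01, and Lgr4 just outside it at 1.99.

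**Figure D1:**
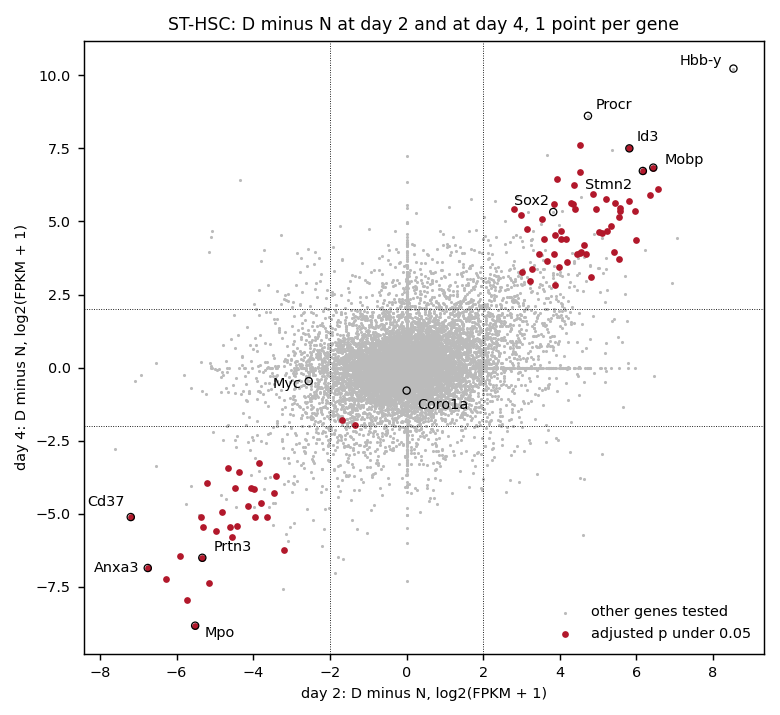
D minus N in ST-HSC for each of the 12254 tested genes, day 2 on the horizontal axis and day 4 on the vertical axis, both in log2(FPKM + 1). Dotted lines mark a 4-fold difference, red points are the 84 genes past the limma threshold, and these sit toward the upper right (53 genes) and lower left (31 genes) corners.

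A limma fit on the 12 cultured blood libraries, with a term for each of the 6 D and N pairs and a D effect for each of the 3 cell types, called 53 genes higher in D (0.433% of those tested) and 31 lower (0.253%) in ST-HSC at an adjusted p under 0.05. The fit takes the 2 days as repeats of each other. Its p-values set the D effect against the spread of D minus N between days within a cell type. All 53 higher genes and 29 of the 31 lower genes were also 4-fold apart at both days; the other 2 were Cmtm7 and H2afy. The calls depend on which libraries are in the fit. Without the LT-HSC day 2 pair 10 genes were called and without the LT-HSC day 4 pair 9, without the ST-HSC day 4 pair 2, and 0 without the ST-HSC day 2 pair, the MP day 2 pair or the MP day 4 pair. The 4 ST-HSC libraries fitted alone gave 0 calls by limma. The count was also 9 with 0.1 in place of 1 added before the log, and 7 with no filter on low values. Below, "rose" and "fell" are used of genes past this threshold in the fit to all 12 libraries, and 1576 genes had an unadjusted p under 0.05.

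Genes of the nervous system were among the highest ranked. Stmn2, a tubulin-binding protein of growing axons, was at 454 FPKM in 2D and 105 in 4D, against 5.34 in 2N and listed at 0 in 4N. Mobp, a protein of the myelin sheath, was at 85.8 FPKM in 2D and 114 in 4D, against listed at 0 in both N libraries. Sox21, the Sox2-related factor, was at 100 FPKM in 2D and 42.5 in 4D, against 1.12 in 2N and listed at 0 in 4N. For each of these genes, which were chosen by rank, the D libraries lay above the N libraries of either day. Uncultured ST-HSC had all of them listed at 0. Each rose by limma: Stmn2 by 6.45 ± 0.46 (SE; adjusted p = 0.00526) and Sox21 by 5.51 ± 0.56 (adjusted p = 0.0139), sizes that rest at day 4 on the 1 added to an N level listed at 0, while for Mobp, with no N value above 0, only the adjusted p of 0.00684 is given. Helt, a transcriptional repressor of midbrain neurons, was at 28.0 FPKM in 2D and 60.1 in 4D and listed at 0 in both N libraries (limma adjusted p = 0.0139). Npy, the precursor of neuropeptide Y, was at 29.6 FPKM in 2D and 42.4 in 4D and listed at 0 in both N libraries (limma adjusted p = 0.0192). Dpysl3, a protein of axon growth, was at 77.1 FPKM in 2D and 48.6 in 4D, against 0.786 in 2N and listed at 0 in 4N, and it rose by 5.54 ± 0.62 (SE; limma adjusted p = 0.0175).

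These genes are a small part of the neural lists, most of whose members were too low to be tested. The shares over all tested genes, 2.4% higher and 1.24% lower at both days, are the background for these list counts and those that follow. Of 36 neural transcription factors 13 were tested, 2 were 4-fold higher at both days and the same 2, Sox21 and Helt, rose by limma. Of 40 neuronal cytoskeleton and axon genes 19 were tested and 3 were 4-fold higher, Stmn2, Dpysl3 and Mtap1b, of which the first pair rose. Of 36 synapse and neuropeptide genes 8 were tested, with Npy and Syt11 4-fold higher and Npy past the limma threshold, and of 22 glial and myelin genes 8 were tested, with Mobp and Gpm6b 4-fold higher and Mobp past it. No member of these 4 lists was 4-fold lower at both days. Among the 8 neural markers 6 were above 0 in 2D and 6 in 4D, against 4 in 2N and 1 in 4N, and Dcx, a marker of young neurons, was listed at 0 in all 4 libraries. Their summed level was 730 FPKM in 2D and 353 in 4D, against 8.25 in 2N and 0.0467 in 4N, and they include Sox2 and several of the genes above. The part of neural cells in these differences was not tested.

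The promoters of genes from the neural group that rose are shown to place Sox and Oct binding words beside them, as the 250 bases before the start, 5′ to 3′ on the gene's strand, from RefSeq on GRCm38.p6. The expression values were made on mm9, so only the gene names join the sequence and the level. Capitals mark ACAAAG, a core word of Sox proteins, read on either strand, so that CTTTGT is the same word on the other strand.
Mobp (chr9:120149492-120149741, plus strand): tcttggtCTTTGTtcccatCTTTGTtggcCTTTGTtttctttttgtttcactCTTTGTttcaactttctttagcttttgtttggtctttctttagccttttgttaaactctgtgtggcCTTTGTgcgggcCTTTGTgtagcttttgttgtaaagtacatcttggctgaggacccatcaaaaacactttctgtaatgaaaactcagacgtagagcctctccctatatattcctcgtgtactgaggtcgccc
Sox21 (chr14:118237031-118237280, minus strand): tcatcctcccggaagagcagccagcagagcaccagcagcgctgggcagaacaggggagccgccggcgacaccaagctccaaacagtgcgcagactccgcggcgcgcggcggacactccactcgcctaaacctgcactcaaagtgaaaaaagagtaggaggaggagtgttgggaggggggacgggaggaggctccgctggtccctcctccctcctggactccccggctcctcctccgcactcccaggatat
Mobp held 6 of these words, at 243, 231, 221, 198, 132 and 120 bases before its start. Sox21, Npy and Helt held 0. The promoters of Stmn2 and Dpysl3, which also rose, were not examined. ACAAAG occurred in 16.8% of 22592 RefSeq promoters of this length. ACAATG, another Sox core word found in 10.9% of them, and the octamer ATGCAAAT, found in 1.7%, had no match in Mobp, Sox21, Npy or Helt. A match is a description of the letters and not a binding site.

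**Figure D2:**
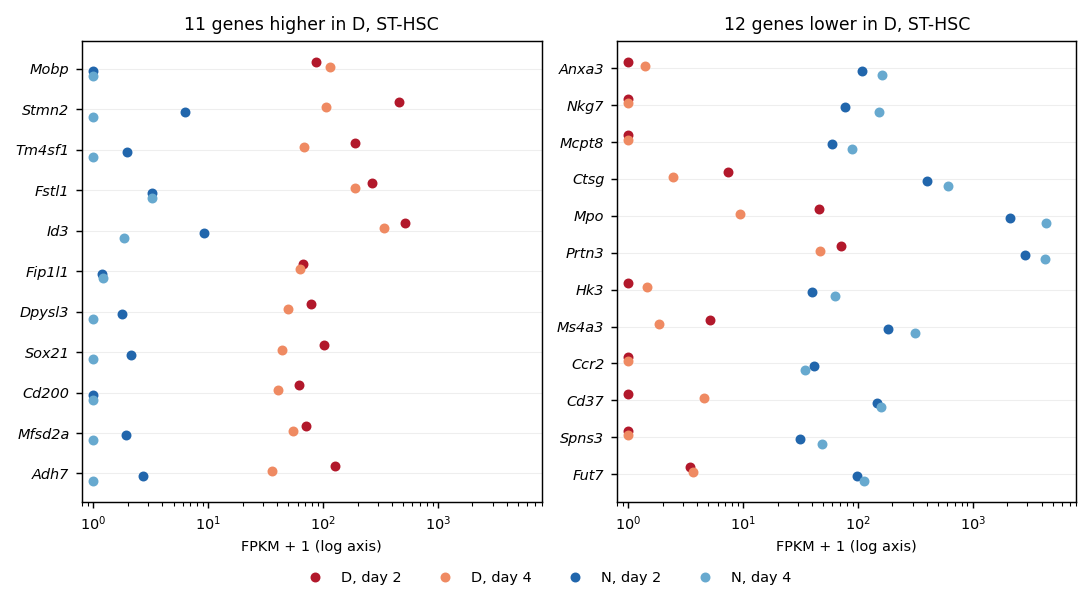
Levels (FPKM + 1, log axis) of 11 higher and 12 lower genes named by rank, in 2D, 4D, 2N and 4N, 1 point per library. Both D points lie on the same side of both N points in each of these genes, as the rule that chose them requires within a day.

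The other higher genes by rank included regulators and surface proteins outside the nervous system. Id3, an inhibitor of helix-loop-helix factors and a target of BMP signalling, was at 515 FPKM in 2D and 336 in 4D, against 8.17 in 2N and 0.858 in 4N, with 183 in uncultured ST-HSC. It rose by 6.66 ± 0.60 (SE; limma adjusted p = 0.0101), and both D levels were above the uncultured one. Fstl1, a secreted protein that binds BMP ligands, was at 267 FPKM in 2D and 190 in 4D, against 2.26 in 2N and 2.22 in 4N, and rose by 6.13 ± 0.87 (SE; limma adjusted p = 0.0335). Tm4sf1, a membrane protein of endothelial and tumour cells, was at 188 FPKM in 2D and 67.5 in 4D, against 0.980 in 2N and listed at 0 in 4N (limma adjusted p = 0.0392). Adh7, an alcohol dehydrogenase that oxidises retinol, was at 125 FPKM in 2D and 34.8 in 4D, against 1.69 in 2N and listed at 0 in 4N (limma adjusted p = 0.0139). Other ranked genes were Cd200, an inhibitory surface ligand, Mfsd2a, a lipid transporter of the blood-brain barrier, and the polyadenylation factor Fip1l1. Cd200 was listed at 0 in both N libraries, while Fip1l1 was at 65.7 FPKM in 2D and 62.4 in 4D, against 0.189 in 2N and 0.215 in 4N. Its low ST-HSC N levels stand apart. Uncultured ST-HSC had 87.2 FPKM of Fip1l1, and the LT-HSC and MP N libraries had 55.8 to 84.3. The Fip1l1 difference was -4.26 at day 2 and -0.83 at day 4 in LT-HSC, and -2.04 and 0.65 in MP.

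Primary granule genes fell in D or had lower levels there, with 1 exception a day among 16 tested, and they made up 5 of the 12 lower genes by rank. Prtn3, proteinase 3, was at 70.5 FPKM in 2D and 45.9 in 4D, against 2874 in 2N and 4277 in 4N. Mpo, myeloperoxidase, was at 45.1 FPKM in 2D and 8.45 in 4D, against 2109 in 2N and 4315 in 4N. Ctsg, cathepsin G, was at 6.43 FPKM in 2D and 1.45 in 4D, against 395 in 2N and 613 in 4N. For these proteases and the peroxidase the D libraries lay below both the N libraries and the uncultured cells, which had 797 FPKM of Prtn3 and 765 of Mpo. Prtn3 fell by 5.92 on the log2 scale (SE 0.40; limma adjusted p = 0.00526), Mpo by 7.18 (SE 0.79; limma adjusted p = 0.0175) and Ctsg by 6.85 (SE 0.59; limma adjusted p = 0.00834). Ms4a3, a membrane protein of granulocyte precursors, was at 4.17 FPKM in 2D and 0.873 in 4D, against 183 in 2N and 313 in 4N, and fell by 6.27 (SE 0.65; limma adjusted p = 0.0139). Nkg7, a granule membrane protein, was listed at 0 in both D libraries, against 76.2 FPKM in 2N and 152 in 4N (limma adjusted p = 0.0175). In bulk RNA, fewer cells of a kind and less RNA per cell cannot be told apart.

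Of the 18 primary granule genes 16 were tested. A 4-fold lower level at both days was seen in 8, Mpo, Elane, Prtn3, Ctsg, Prssl1, Ms4a3, Cst7 and Nkg7, a 4-fold higher level in 0, and 5 fell by limma. The list's median difference was -2.26 at day 2 and -2.68 at day 4, with 15 of 16 lower in D at each day. Late granule and calprotectin genes, which belong to more mature neutrophils, had a median of 0 at both days over 21 tested members, with Mgst1 4-fold higher and 0 called by limma; several of them were listed at 0 in these libraries. The 8 neutrophil markers, which include 4 of the primary granule genes, summed to 154 FPKM in 2D and 58.5 in 4D, against 5479 in 2N and 9347 in 4N. Ltf, lactoferrin of the secondary granule, was listed at 0 in all 4.

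Promoters of the 3 granule genes described above are shown to place the binding words of the myeloid regulators PU.1 and C/EBP beside genes that fell (RefSeq, GRCm38.p6, 250 bases before the start, 5′ to 3′ on the gene's strand). Capitals mark GAGGAA, a core word of PU.1, searched on both strands.
Prtn3 (chr10:79879417-79879666, plus strand): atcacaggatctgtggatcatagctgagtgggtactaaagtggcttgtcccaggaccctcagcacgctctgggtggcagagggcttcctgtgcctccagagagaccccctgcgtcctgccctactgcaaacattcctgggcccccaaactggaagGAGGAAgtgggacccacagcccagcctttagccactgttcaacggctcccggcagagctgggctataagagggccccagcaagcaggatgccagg
Mpo (chr11:87793534-87793783, plus strand): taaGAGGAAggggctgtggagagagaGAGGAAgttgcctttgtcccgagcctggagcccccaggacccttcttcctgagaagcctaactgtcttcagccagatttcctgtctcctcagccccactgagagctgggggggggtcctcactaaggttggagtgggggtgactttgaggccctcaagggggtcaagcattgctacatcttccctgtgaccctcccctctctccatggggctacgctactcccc
Ctsg (chr14:56102575-56102824, minus strand): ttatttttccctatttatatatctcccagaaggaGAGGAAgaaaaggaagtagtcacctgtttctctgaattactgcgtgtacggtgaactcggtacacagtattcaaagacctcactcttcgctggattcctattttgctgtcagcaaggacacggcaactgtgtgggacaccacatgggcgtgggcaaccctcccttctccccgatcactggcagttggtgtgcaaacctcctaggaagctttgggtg
Mpo held 2 such words, Prtn3 1 and Ctsg 1, while Ms4a3 held 0. The word occurred in 23.2% of 22592 promoters. The C/EBP word TTGCNNAA, where N is any base, occurred in 9.63% of promoters and had no match in these 4. The table held a single promoter for 161 of the 294 higher and 82 of the 152 lower genes, too few for a share over either set.

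Other lower genes by rank had different roles. Anxa3, an annexin of neutrophils, was listed at 0 in 2D and at 0.405 FPKM in 4D, against 107 in 2N and 162 in 4N, and fell by 6.81 on the log2 scale (SE 0.55; limma adjusted p = 0.00684). Cd37, a tetraspanin of leukocytes, was listed at 0 in 2D and at 3.59 FPKM in 4D, against 146 in 2N and 158 in 4N, and fell by 6.16 (SE 0.72; limma adjusted p = 0.0175). Fut7, which makes selectin ligands, was at 2.45 FPKM in 2D and 2.68 in 4D, against 96.8 in 2N and 112 in 4N, and fell by 4.88 (SE 0.60; limma adjusted p = 0.0195). The D levels of these genes, which were chosen by rank, were near 0 at both days and below both N levels. Hk3, a hexokinase of myeloid cells, was listed at 0 in 2D and at 0.446 FPKM in 4D, against 39.0 in 2N and 62.6 in 4N (limma adjusted p = 0.0183). Ccr2, a chemokine receptor of monocytes, was listed at 0 in both D libraries, against 40.3 FPKM in 2N and 34.0 in 4N (limma adjusted p = 0.0183). Mcpt8, a basophil protease, was listed at 0 in both D libraries and in uncultured cells, against 59.0 FPKM in 2N and 87.3 in 4N (limma adjusted p = 0.0175). The 6 mast cell and basophil markers summed to 0 in 2D and 1.40 FPKM in 4D, against 66.5 in 2N and 165 in 4N. The 8 macrophage and dendritic markers summed to 3.01 FPKM in 2D and 16.6 in 4D, against 18.5 in 2N and 78.4 in 4N, with C1qa, C1qb, C1qc and Itgax listed at 0 in all 4. The part of such cells in the lower genes was not tested.

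Of 30 tested phagocyte oxidase and Fc receptor genes 9 were 4-fold lower at both days and 0 higher, with medians of -1.15 at day 2 and -1.69 at day 4, and 0 passed the limma threshold. Examples are Ncf4, a subunit of the phagocyte oxidase, at 69.4 FPKM in 2D and 25.1 in 4D, against 321 in 2N and 287 in 4N, and Tyrobp, a signalling adaptor, at 11.6 in 2D and 5.55 in 4D, against 102 in 2N and 289 in 4N. Among 18 tested myeloid transcription factors 3 were 4-fold lower, Tcfec, Irf8 and Cebpa, 1 was higher, Klf6, and Tcfec fell by 3.87 (SE 0.61; limma adjusted p = 0.0427). Irf8, a regulator of the monocyte lineage, was at 3.37 FPKM in 2D and listed at 0 in 4D, against 40.0 in 2N and 190 in 4N (limma adjusted p = 0.0563). Cebpa, a regulator of granulocytes, was listed at 0 in 2D and at 1.71 FPKM in 4D, against 15.0 in 2N and 14.1 in 4N (limma adjusted p = 0.204).

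General leukocyte genes had smaller differences than the granule genes. Ptprc, which encodes CD45, was at 55.9 FPKM in 2D and 22.0 in 4D, against 28.5 in 2N and 30.9 in 4N. Coro1a, an actin regulator of blood cells, was at 2254 FPKM in 2D and 1907 in 4D, against 2250 in 2N and 3296 in 4N. The D and N levels overlapped for both genes. Of 56 pan-leukocyte genes, all tested, 9 were 4-fold lower at both days, 0 were higher, and Cd37 and Ptpn7 fell by limma; the list's median was -0.45 at day 2 and -0.88 at day 4. The same list had medians of -2.86 at day 2 and -4.03 at day 4 in LT-HSC, and of -2.52 and -4.80 on those days in MP. The contrast of ST-HSC with the mean of LT-HSC and MP had an unadjusted limma p under 0.05, toward a higher difference in ST-HSC, in 28 of the 56 genes, beside 10.1% of all tested genes in either direction. After adjustment over all tested genes 0 of the 56 passed, the smallest limma adjusted p being 0.122.

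**Figure D3:**
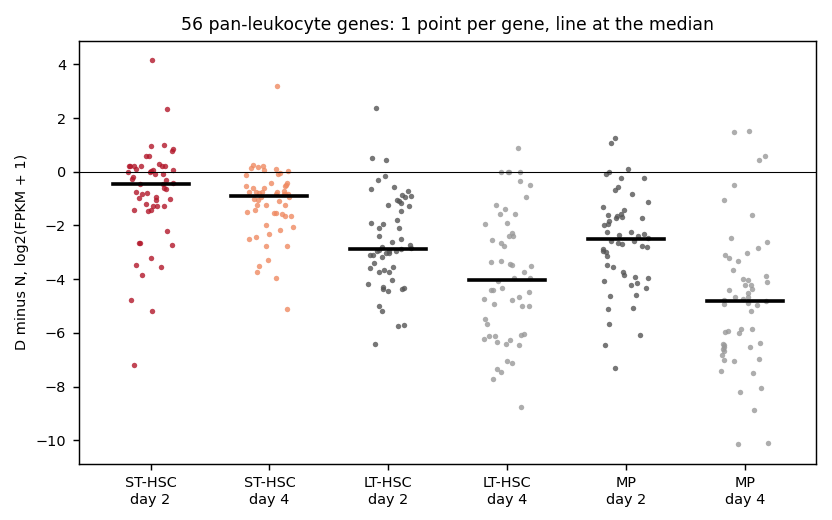
D minus N (log2(FPKM + 1)) of 56 pan-leukocyte genes at day 2 and day 4 in ST-HSC, LT-HSC and MP; each point is a gene and each line a median. The ST-HSC medians, -0.45 and -0.88, lie nearest to 0.

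Stem cell genes went both ways. Ly6a, which encodes Sca-1, was at 169 FPKM in 2D and 148 in 4D, against 20.2 in 2N and 14.3 in 4N, with 177 in uncultured ST-HSC. It rose by 3.14 ± 0.42 (SE; limma adjusted p = 0.0287), and the D levels lay near the uncultured one. Procr, the endothelial protein C receptor found on stem cells, was at 752 FPKM in 2D and 391 in 4D, against 27.3 in 2N and listed at 0 in 4N, and its difference of 6.67 ± 1.28 (SE) missed the threshold (limma adjusted p = 0.0779). Mecom, a transcription factor needed for stem cell upkeep, was at 85.2 FPKM in 2D and 15.8 in 4D, against 4.84 in 2N and 1.38 in 4N, and rose by 3.35 ± 0.55 (SE; limma adjusted p = 0.0487). Fhl1, a LIM domain protein, was at 51.5 FPKM in 2D and 101 in 4D, against 1.29 in 2N and listed at 0 in 4N, and rose by 5.60 ± 0.58 (SE; limma adjusted p = 0.0139). The D and N levels did not overlap for any of these 4 genes. They were named for such differences or after their values were seen, so this lends no support.

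The lower stem and progenitor genes included surface proteins of the megakaryocyte and progenitor path. Itga2b, which encodes CD41, was listed at 0 in both D libraries, against 11.5 FPKM in 2N and 33.4 in 4N (limma adjusted p = 0.0487). Muc13, a mucin of progenitors, was at 8.15 FPKM in 2D and listed at 0 in 4D, against 83.5 in 2N and 75.0 in 4N, and fell by 4.73 (SE 0.74; limma adjusted p = 0.0427). Myb, a regulator of progenitor growth, was at 8.67 FPKM in 2D and 13.7 in 4D, against 71.6 in 2N and 68.2 in 4N, a difference of -2.57 ± 0.46 (SE) that missed the threshold (limma adjusted p = 0.0617). Cd34 was at 220 FPKM in 2D and 155 in 4D, against 596 in 2N and 442 in 4N, below 4-fold. Kit was at 28.9 FPKM in 2D and 23.5 in 4D, against 16.7 in 2N and 7.68 in 4N. Of 36 tested HSC surface and signature genes 6 were 4-fold higher and 4 lower at both days, with 2 rising and 2 falling by limma, and the medians were 0.30 at day 2 and 0.48 at day 4. Of 32 tested stem and progenitor transcription factors 2 were 4-fold higher, Mecom among them, and Myb alone was lower. These counts, like those of the neural lists, are few, and no list was tested against the 2.4% and 1.24% of all tested genes. The medians were 0.17 at day 2 and 0.18 at day 4. Of 12 stem and progenitor markers 10 were above 0 in each D library, against 11 in 2N and 9 in 4N, and Slamf1, a marker of long-term stem cells, was listed at 0 in all 4.

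**Figure D4:**
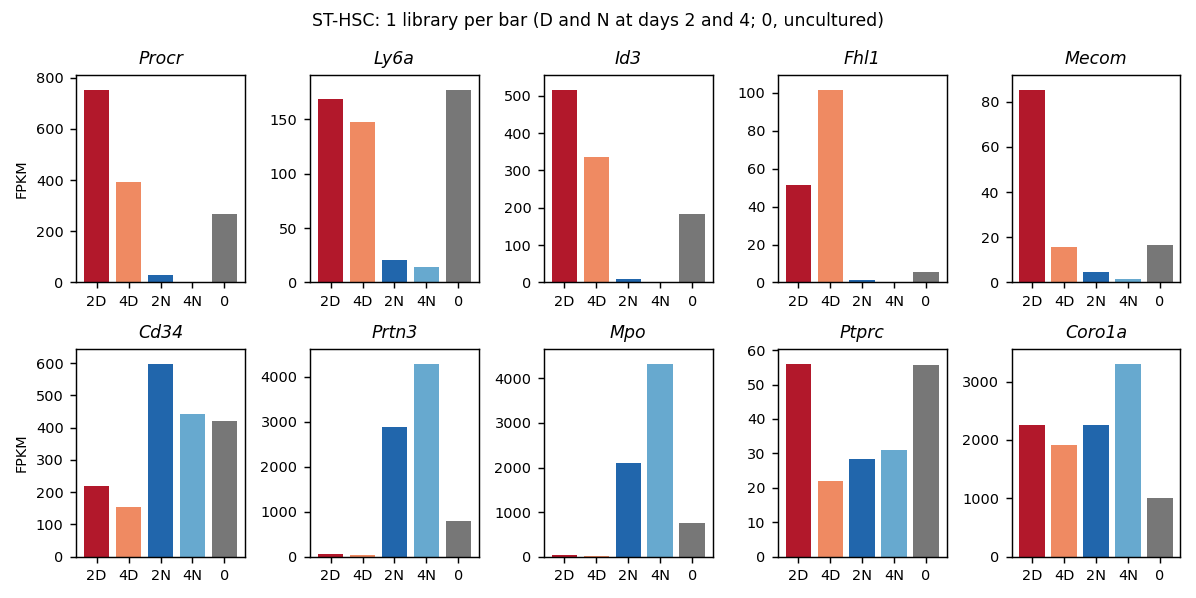
FPKM of 10 genes in 2D, 4D, 2N, 4N and uncultured ST-HSC (0), 1 library per bar, axes from 0. Procr, Ly6a, Id3, Fhl1 and Mecom are higher in both D bars than in both N bars; Cd34, Prtn3 and Mpo are lower; Ptprc and Coro1a overlap.

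Of 26 tested genes of TGF-beta, BMP and Id signalling 5 were 4-fold higher at both days, Id3, Ltbp1, Tgfb2, Fst and Acvr1, and 0 lower, with medians of 1.07 at day 2 and 1.57 at day 4; Id3 alone among them passed the limma threshold. The ligand Tgfb2 was at 8.97 FPKM in 2D and 10.3 in 4D and listed at 0 in both N libraries, and the receptor Acvr1 was at 36.0 in 2D and 31.4 in 4D, against 7.04 in 2N and 4.77 in 4N. Of 28 tested mesenchymal and matrix genes 5 were 4-fold higher and 2 lower, and 3 rose by limma, Fstl1, Timp1 and Col18a1. Timp1, an inhibitor of matrix proteases, was at 22.2 FPKM in 2D and 14.2 in 4D and listed at 0 in both N libraries (limma adjusted p = 0.0392). Col18a1, a basement membrane collagen, was at 39.6 FPKM in 2D and 32.8 in 4D, against 2.49 in 2N and listed at 0 in 4N (limma adjusted p = 0.0427). The 16 genes of the fibroblast marker list, of which 4 were tested, include Fstl1. They summed to 273.8 FPKM in 2D and 191 in 4D, against 12 in 2N and 28.9 in 4N. Nearly all of both D sums was Fstl1. Among the 4 tested members Fstl1 was higher in D at both days, and the other 3 were lower. The median over the tested members was -0.46 at day 2 and -1.82 at day 4. The 6 narrower fibroblast markers (Col1a1, Col1a2, Col3a1, Pdgfrb, Dcn and Lum) summed to 4.61 FPKM in 2D and 0 in 4D, against 6.59 in 2N and 8.91 in 4N. The part of such cells in these differences was not tested.

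Of 15 tested imprinted growth genes 7 were 4-fold higher in D at both days, Mest, Grb10, Slc22a18, Nnat, Plagl1, Cdkn1c and Phlda2, and 0 were lower. The medians were 2.04 at day 2 and 2.09 at day 4, and Mest passed the limma threshold. Mest, a mesoderm-expressed hydrolase, was at 871 FPKM in 2D and 194 in 4D, against 37.1 in 2N and listed at 0 in 4N, and rose by 6.06 ± 0.92 (SE; limma adjusted p = 0.0392). Both D levels lay above both N levels, and the uncultured cells had it listed at 0. Grb10, an adaptor that dampens insulin and IGF signalling, was at 37.8 FPKM in 2D and 11.2 in 4D, against 0.876 in 2N and listed at 0 in 4N (limma adjusted p = 0.0563). Cdkn1c, an inhibitor of the cell cycle, was at 15.6 FPKM in 2D and 3.32 in 4D and listed at 0 in both N libraries (limma adjusted p = 0.193).

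Of 26 tested epithelial junction genes 5 were 4-fold higher, Lsr, Epcam, Ocln, F11r and Jup, and 1 lower, Spint1, with 0 past the limma threshold; the median was 2.56 at day 2 and 0.29 at day 4. Epcam, an adhesion protein of epithelial and pluripotent cells, was at 43.8 FPKM in 2D and 5.46 in 4D, against 2.83 in 2N and listed at 0 in 4N (limma adjusted p = 0.116). Only 4 of 22 pluripotency genes were expressed enough to be tested; Epcam and Klf5 were 4-fold higher and 0 passed. Among 27 tested immediate early and AP-1 genes Fos, Jun and Klf6 were 4-fold higher and 0 lower. Fos was at 46.0 FPKM in 2D and 22.6 in 4D, against 0.590 in 2N and listed at 0 in 4N, while uncultured cells had 404 (limma adjusted p = 0.0857). Of 12 tested liver-type and barrier genes Adh7, Ahsg, Fetub and Aldh1a1 were 4-fold higher and 1 gene was lower, and Adh7 and Ahsg rose by limma. Ahsg, a secreted plasma protein of the liver, was at 31.5 FPKM in 2D and 24.1 in 4D and listed at 0 in both N libraries (limma adjusted p = 0.0234).

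The embryonic globin gene Hbb-y was at 6887 FPKM in 2D and 3032 in 4D, against 17.6 in 2N and 1.52 in 4N. The D and N levels lay far apart at both days, yet the limma difference of 9.38 ± 1.74 (SE) missed the threshold (adjusted p = 0.0722). Globin genes are near copies of each other, so how reads were split among them is uncertain. The 4 erythroid markers summed to 0 in 2D and 1.71 FPKM in 4D, against 0 in 2N and 3.68 in 4N.

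**Figure D5:**
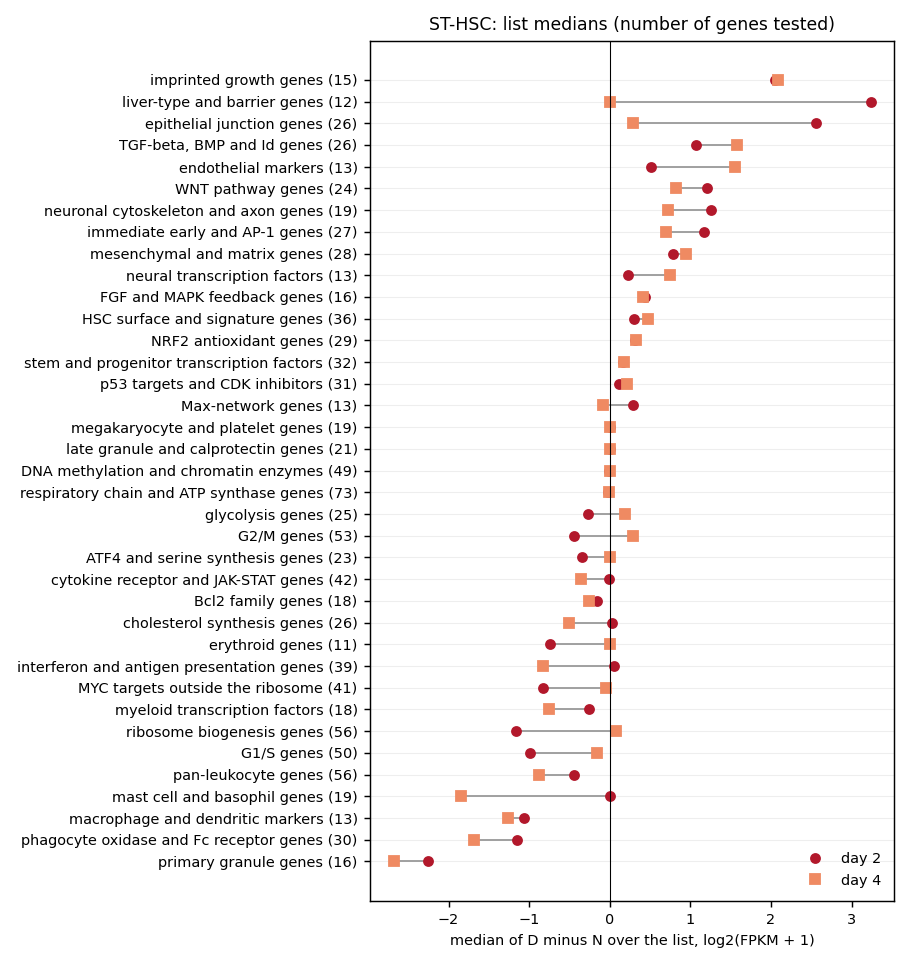
Median D minus N (log2(FPKM + 1)) of 37 gene lists with at least 10 tested members, circle for day 2 and square for day 4. Primary granule genes are lowest at both days (-2.26 and -2.68), and imprinted growth genes are at 2.04 and 2.09.

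Growth and cell cycle lists differed by day. All 56 tested ribosome biogenesis genes were lower in 2D than in 2N, with a median of -1.17, while at day 4 the median was 0.07 and 31 were higher and 25 lower in D. Ncl, nucleolin, was at 72.7 FPKM in 2D and 131 in 4D, against 127 in 2N and 91.0 in 4N. The 50 G1/S genes had a median of -0.99 at day 2 and -0.16 at day 4, and the 41 tested MYC targets outside the ribosome had -0.83 and -0.05 on those days. G2/M genes had -0.45 at day 2 and 0.29 at day 4. None of these 4 lists had a member past 4-fold at both days or past the limma threshold, and with 1 pair a day the difference between days could not be tested. Myc itself was lowest in 2D among the cultured ST-HSC libraries. The 73 tested respiratory chain and ATP synthase genes had medians of -0.02 at day 2 and -0.01 at day 4.

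The same comparison in LT-HSC gave 339 genes (2.77%) 4-fold higher and 485 (3.96%) 4-fold lower at both days, and in MP 429 (3.5%) higher and 556 (4.54%) lower. By limma, 206 genes rose (1.68%) and 340 fell (2.77%) in LT-HSC, and 335 rose (2.73%) and 458 fell (3.74%) in MP. Each cell type has its own N libraries. Of the genes higher in ST-HSC 107 were also higher in LT-HSC, 36.4% of the ST-HSC genes and 31.6% of the LT-HSC genes, and 127 were also higher in MP, 43.2% of the ST-HSC genes and 29.6% of the MP genes. Of the lower genes 50 were shared with LT-HSC, 32.9% of the ST-HSC and 10.3% of the LT-HSC genes, and 99 with MP, 65.1% of the ST-HSC and 17.8% of the MP genes. In all 3 cell types 79 genes were higher and 39 lower. In LT-HSC 8 of the higher genes, Col18a1 and Jup among them, were 4-fold lower at both days, and in MP 0 were. These 2 names were chosen after their values were seen.

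Whether the ST-HSC difference departed from the other cell types was tested by limma contrasts, and 0 genes passed. Such contrasts miss many differences. In simulated data with genes changed in ST-HSC alone, the contrast with LT-HSC and MP called 2% of those changed by 1 (log2). It called 12% at 2, 34% at 3 and 82% at 4. Against the mean of LT-HSC and MP the smallest adjusted p was 0.107, with 1241 genes (10.1%) at an unadjusted p under 0.05. Against LT-HSC it was 0.0800, with 1499 genes (12.2%), and against MP 0.125, with 1190 genes (9.71%). Without the pair terms the counts were 13 against LT-HSC and MP, 23 against LT-HSC and 3 against MP, and with 5 added before the log 8 passed against LT-HSC. The genes with the smallest p included Pglyrp1, a bactericidal protein of neutrophils, at 171 FPKM in 2D and 58.1 in 4D, against 110 in 2N and 52.3 in 4N. Its D minus N difference was 0.63 at day 2 and 0.15 at day 4 in ST-HSC, -7.75 and -5.51 in LT-HSC, and -8.55 and -6.70 in MP. Lyz2, lysozyme of myeloid cells, was at 71.0 FPKM in 2D and 45.5 in 4D, against 248 in 2N and 36.5 in 4N, with differences of -1.79 and 0.31 in ST-HSC, -5.44 and -7.20 in LT-HSC, and -8.18 and -9.63 in MP. On the first principal component of the 12 cultured libraries, 31.7% of the variance, the ST-HSC D libraries lay at 19.3 (2D) and 22.7 (4D) and the ST-HSC N libraries at -55.8 (2N) and -61.1 (4N). In LT-HSC the D libraries lay at 61.1 (2D) and 91.1 (4D) and the N libraries at -50.5 (2N) and -47.95 (4N). In MP they lay at 67.6 (2D), 92.3 (4D), -67.9 (2N) and -70.75 (4N). These positions were not tested.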

How the data were processed

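RNA was measured in 18 libraries, of which the 4 cultured ST-HSC libraries are the subject and the other 8 cultured blood libraries entered the fit. The values deposited by the authors are FPKM per gene, and per the submitters' processing notes they were made with TopHat and Cufflinks on mm9, with versions and annotation not given in the sources used here. Reads could not be recovered from the values, so depth is unknown and no interval is given. The table held 36818 entries and 36655 symbols, and entries of a symbol were summed. Libraries were grouped by title, since the doxycycline field reads yes for N too.

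log2(FPKM + 1) was compared within each day, and a gene counted when D and N were 4-fold apart the same way at both days, among the 12254 genes whose mean over the 12 cultured blood libraries reached 1 FPKM. These were also fitted with limma 3.58.1 in R 4.3.3 (trend and robust), with 6 pair terms and a D effect per cell type, 3 residual degrees of freedom, two-sided, Benjamini-Hochberg adjusted at 0.05. The pair terms join D and N of the same cell type and day, as the design text sets them against each other. Figures were drawn with matplotlib 3.10.9 and tables made with numpy 2.4.6 and pandas 2.3.3 under Python 3.11.15. On simulated data for D against N in ST-HSC, run on 12254 genes with 50 changed at each size, limma called 6% of genes changed by 1 on the log2 scale, 28% at 2, 62% at 3 and 92% at 4, with 12 false calls. Those 12 were a larger share of its calls than the 0.05 at which the threshold aims. The simulated noise was a single normal draw with the spread of the fit and no floor for low values. The share of false calls in the real data is therefore unknown.

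The genes named were the 4 factors, the 12 highest and 12 lowest by the smaller daily difference among genes past both rules, 6 each way by the contrast with LT-HSC and MP, 6 each way by opposite days, and up to 5 members of each of 45 lists, from which examples are given; a few of these genes are left out of the text. Genes named beside these were chosen after their values were seen: Ly6a, Ncf4, Elane, Cst7, Prssl1, Phlda2, Spint1, Cd34, Kit, Ptprc, Coro1a, Slamf1, Dcx, Ltf, Ncl, Cd59a, Lgr4, Cmtm7, H2afy and those of the closing observations. The comparison, the lists and these rules were chosen with earlier results of these data known, so they lend no independent support. Alternatives were other added values, filters, scalings, folds, fits and leaving out each pair.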

Additional observations from a re-analysis of the deposited data

Results flagged for a closer look

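Several genes were far apart between D and N one way at day 2 and the other way at day 4 in ST-HSC, and the difference between the days was not tested because each day has 1 pair. Higher in D at day 2 and lower at day 4 were Ccdc22 (4.61 at day 2), 2900056M20Rik (4.63), Tpmt (4.54), Gdf1 (3.41), Fam129c (5.10) and Pik3ip1 (2.94), all as log2(FPKM + 1) differences at day 2. Lower in D at day 2 and higher at day 4 were Taf1d (-5.07), Prrg2 (-5.11), Snora3 (-4.35), Gm15605 (-5.15), Spin2 (-3.73) and Foxp3 (-3.81). For 2900056M20Rik, Tpmt, Gdf1 and Fam129c the 2N level was listed at 0. For Prrg2, Snora3, Gm15605 and Spin2 the 2D level was. The day 2 sizes of these genes therefore depend on the 1 added before the log. Ccdc22, for example, was at 45.1 FPKM in 2D and 0.674 in 4D, against 0.888 in 2N and 88.9 in 4N. Foxp3 was at 2.85 FPKM in 2D and 12.3 in 4D, against 52.9 in 2N and 0.0667 in 4N. It was thus high where Ccdc22 was low, and the reverse. How reads were assigned between these genes was not tested, so they may not be separate differences.

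Some list medians in ST-HSC had the opposite sign to another cell type at both days, which was not tested as a list. The median D minus N of stem and progenitor transcription factors was 0.17 at day 2 in ST-HSC and below 0 at both days in LT-HSC and MP. HSC surface and signature genes (0.30 at day 2), FGF and MAPK feedback genes (0.44) and endothelial markers (0.51) had positive medians at both days in ST-HSC and negative ones in LT-HSC. MYC targets outside the ribosome (-0.83 at day 2) had negative medians in ST-HSC and positive ones in LT-HSC. Respiratory chain and ATP synthase genes (-0.0230 at day 2) were just below 0 in ST-HSC and above 0 in LT-HSC and MP, and their ST-HSC median turned positive when libraries were scaled to the same median or quantile normalized.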

How the results depend on the processing

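The count of genes 4-fold apart at both days, 446, was 900 with 0.1 added before the log, 132 with 5 added, 1386 at 2-fold, 167 at 8-fold, and 240 when both libraries of the higher group had at least 10 FPKM, a setting chosen after seeing the data; filters, scalings and the choice of entry kept it within 1.5 times. The count of genes with opposite days, 78, was 265 with 0.1 added, 5 with 5 added and 35 at a mean FPKM of at least 5. The limma count of 84 was 9 with 0.1 added, 7 without a filter, 0 in the ST-HSC libraries alone, 1099 with a common D effect for the 3 cell types, 213 at an adjusted p of 0.10 and 0 to 10 when a pair was left out. Without the pair terms, which form the replicate block, 122 genes were called. The contrasts gave 0 calls, but without the pair terms 13 against LT-HSC and MP, 23 against LT-HSC and 3 against MP. Against LT-HSC there were also 8 calls with 5 added and 1 with plain empirical Bayes. Leaving out a pair gave 0 to 1 calls against LT-HSC and MP, 0 to 3 against LT-HSC and 0 against MP. Of 38 named genes past the threshold, 0 changed direction under any of these settings. Genes past the threshold were nearly all 4-fold apart the same way at both days, so most settings could hardly turn them. Their constant direction therefore lends no support. All 38 stayed called under quantile normalization and under median scaling. With 0.1 added 6 stayed called, without a filter 6, in the ST-HSC libraries alone 0, and with a pair left out 0 to 9. Klf4, not called, had differences from -0.45 (without the ST-HSC day 4 pair) to 1.66 (without the ST-HSC day 2 pair) when a pair was left out. The causes were not tested. Unknown depth limits the reading of values near 0.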

Other observations

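Beside the lists, several genes past the limma threshold have well-known roles; they were chosen after their values were seen. Hey1, a repressor that Notch signalling switches on, was at 33.1 FPKM in 2D and 23.4 in 4D and listed at 0 in both N libraries (limma adjusted p = 0.0220). Foxo1, a factor restrained by insulin signalling, was at 86.4 FPKM in 2D and 24.2 in 4D, against 2.51 in 2N and 0.369 in 4N (limma adjusted p = 0.0392). Gadd45g, a stress-induced growth inhibitor, was at 159 FPKM in 2D and 49.0 in 4D, against 7.09 in 2N and listed at 0 in 4N (limma adjusted p = 0.0487). Hbb-bh0, a beta-like globin gene, was at 62.0 FPKM in 2D and 19.8 in 4D and listed at 0 in both N libraries (limma adjusted p = 0.0322). Plek, pleckstrin of platelets and leukocytes, was listed at 0 in both D libraries, against 23.6 FPKM in 2N and 43.0 in 4N, with 182 in uncultured cells (limma adjusted p = 0.0292).

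Uncultured ST-HSC were set beside the 446 genes after the data were seen. Of the 294 higher genes, 65 had an uncultured level within 4-fold of both D libraries and not of both N libraries, 163 the reverse, 9 were near both and 57 near neither, and 131 were listed at 0 in uncultured cells. Of the 152 lower genes, 61 were near both D libraries, 60 near both N libraries, 4 near both and 27 near neither, and 41 were listed at 0 in uncultured cells. Levels listed at 0 count as near each other here. Of the higher genes 114 were listed at 0 in both N libraries, and of the lower genes 52 in both D libraries. No share over all tested genes was taken, so these counts are not read as a move toward or away from uncultured cells. Uncultured cells are 1 library, and no test was made.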
